A study of Mus musculus with 6 samples.

Results

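The endothelin genes of the embryonic mouse heart were examined as a group of 5: the ligand gene Edn1, the receptor genes Ednra and Ednrb, and the converting enzyme genes Ece1 and Ece2. They were chosen by gene symbol, with their CPM (a library's counts scaled to a common depth) in the 6 libraries already known, out of 30619 rows of the count table. All 5 had a row, and 4 passed the filter on low counts that left 17557 genes. The tissue was whole heart at E12.5, counted in days of embryonic development, and the cells are labelled as mixed. The 3 CKO libraries came from hearts titled as a conditional knockout of Trim28, whose genotype label reads TRIM28 knockdown, and the 3 control libraries came from hearts labelled WT. TRIM28 is a co-repressor that zinc finger proteins bring to DNA. No source used here gives the Cre driver, the cells it acts in, the exons removed or the number of hearts per library. No label says that libraries came from separate animals, so p-values measure only the spread between these libraries, part of which may be technical. Counts of sex-linked genes, given below, differed within each group, so the libraries of a group did not all hold the same animals.

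Endothelins are short peptides that constrict vessels and act on nearby cells. A long precursor is cut by furin-type enzymes to a big endothelin, which ECE1 or the related ECE2 cuts to the active peptide. The peptide binds a pair of G protein-coupled receptors. EDNRA prefers endothelin-1, whereas EDNRB takes all endothelins alike and also clears them in endothelium. In the mouse embryo, endothelin-1 from endothelium and other epithelia signals through EDNRA to neural crest cells of the pharyngeal arches and outflow vessels. Loss of Edn1, Ednra or Ece1 there gives defects of the jaw and great vessels. EDNRB with endothelin-3 serves melanoblasts and gut neurons.

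The libraries held between 34400841 and 39763233 counts. Trim28 itself was at 172, 314 and 165 CPM in CKO replicates 1, 2 and 3, against 305, 391 and 442.5 CPM in control replicates 1, 2 and 3. CKO replicate 2 thus lay within the range of the controls, and every direction below rests on the labels. The log2 fold change of Trim28 was -0.81 with a standard error (SE) of 0.34 (edgeR quasi-likelihood test, adjusted p = 0.339). The ribosomal RNA row took 0.563% to 0.79% of counts in CKO libraries and 0.126% to 0.522% in control libraries, so this share moved with the groups. Heart muscle genes were abundant in both groups, with a summed level of 8 cardiomyocyte markers from 20296 to 21385 CPM in CKO hearts and from 19326 to 20798 CPM in control hearts. Sex also moved with the groups: the X-inactivation transcript Xist had 15232, 7 and 4 counts in CKO replicates 1, 2 and 3, against 24633, 36330 and 17569 counts in control replicates 1, 2 and 3. Counts of Ddx3y, which is Y-linked, were 1382, 2597 and 2626 in CKO, against 1153, 0 and 1604 in control, so 3 libraries held transcripts of both sexes.

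The ligand gene Edn1 was higher and the receptor gene Ednra lower in CKO hearts. Edn1 averaged 18.5 ± 1.50 CPM in CKO hearts and 10.5 ± 0.147 CPM in control hearts (SD, n = 3 each). Ednra averaged 65.9 ± 4.87 CPM in CKO hearts and 92.7 ± 2.21 CPM in control hearts. Ednrb and Ece1 had lower means in CKO hearts by smaller margins, and Ece2 was barely detected in either group. The calls of the fit across all genes are given as a description, since the members were chosen with this contrast known, and no p-value is given for them. At an adjusted p under 0.05, 2 of the 4 tested members were called, Edn1 as higher and Ednra as lower in CKO. Of all tested genes, 4.1% were called, with 3.03% higher and 1.07% lower in CKO. Nothing is read from the members' count against these shares.

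**Figure D1:**
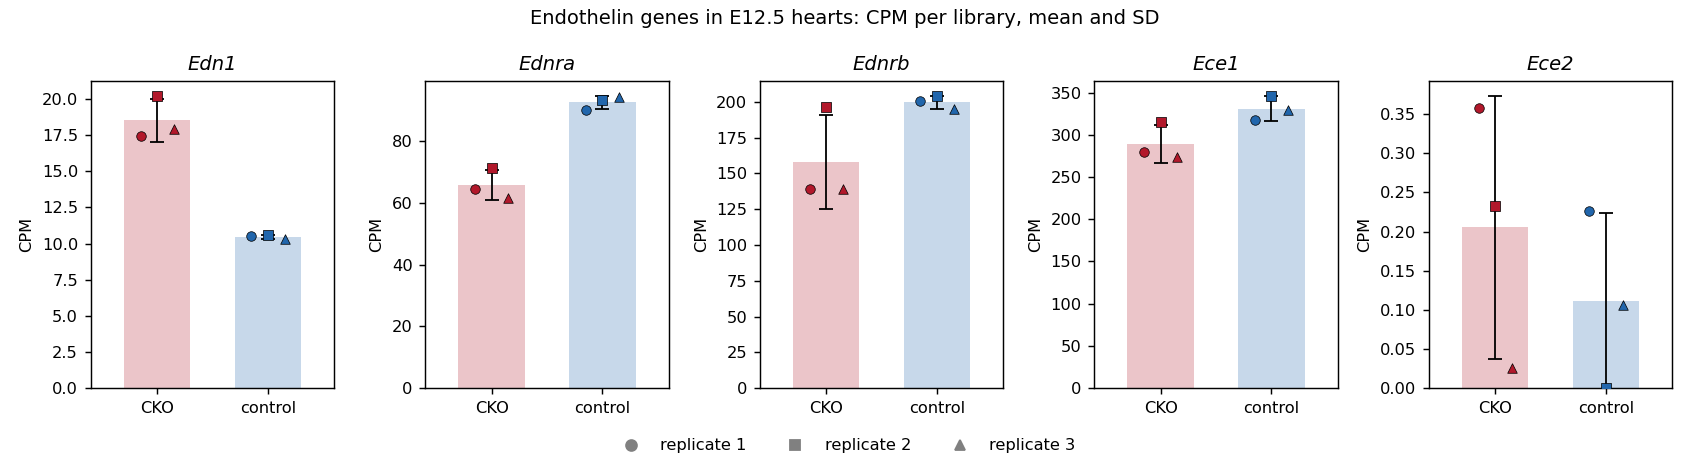
CPM of the 5 endothelin genes in each library (points, shape by replicate number), with group means as bars from 0 and SD as error bars, CKO left and control right, each panel on its own scale. Edn1 lay at 17.4 CPM or more in CKO and at 10.6 CPM or less in control, Ednra showed the opposite order, and CKO replicate 2 was the highest CKO library for Edn1, Ednra, Ednrb and Ece1.

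Edn1 (ENSMUSG00000021367.8), which encodes the endothelin-1 precursor, lies on chromosome 13 from 42301476 to 42307990 on the plus strand of mm10. It was at 17.4, 20.2 and 17.9 CPM in CKO replicates 1, 2 and 3, against 10.5, 10.6 and 10.3 CPM in control replicates 1, 2 and 3. These values rest on 632, 697 and 710 counts in CKO and on 419, 408 and 386 counts in control. All CKO libraries were above all control libraries, with a gap of 6.84 CPM between the nearest. A gap of any size with CKO above was found in 11.5% of tested genes. The log2 fold change, CKO over control, was 0.82 (SE 0.11), a 1.77-fold higher level, and 3.93% of tested genes had a greater one. The control libraries differed from each other by a coefficient of variation (CV) of 1.41%, below the 4.98% that counting alone gives. The CKO libraries varied more, with a CV of 8.09% against a counting error of 3.84%. Leaving out each library in turn gave log2 fold changes from 0.76 to 0.86. Edn1 shares 35 exon bases with the antisense transcript Gm47118, which had 1 to 9 counts.

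The promoter of Edn1 is shown because Edn1 had the largest fold change of the 4 tested members and GATA and AP-1 elements are known in the human EDN1 promoter. RefSeq promoters (GRCm38.p6, 250 bases before to 50 after the annotated start) were found for all 5 members. The motifs searched, on both strands and after the expression values were known, were GATAA, the core read by GATA factors, ACGTG, the core read by hypoxia-inducible factors, and TGACTNA, read by AP-1 factors. In the Edn1 window at chr13:42301226-42301525, plus strand, the capitals mark the matches.

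Edn1 promoter: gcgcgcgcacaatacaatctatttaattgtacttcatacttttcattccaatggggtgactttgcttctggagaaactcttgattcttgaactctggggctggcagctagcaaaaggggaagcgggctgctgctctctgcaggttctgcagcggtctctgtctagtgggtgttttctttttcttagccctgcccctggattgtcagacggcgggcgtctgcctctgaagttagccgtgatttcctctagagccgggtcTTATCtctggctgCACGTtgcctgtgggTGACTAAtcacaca

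GATAA matched on the minus strand at positions 9 to 13 after the start, ACGTG on the minus strand at 22 to 26, and TGACTNA on the plus strand at 37 to 43, with no overlap. Of 32851 promoter windows, 25.4% held GATAA, 19.6% held ACGTG, 13.9% held TGACTNA and 0.721% held all 3. These motifs were picked with Edn1 in mind, so the last share describes the window and supports nothing. None of the 3 matched in the windows of Ednra or Ednrb. Ece1 has 4 annotated starts, of which the third held the palindrome CACGTG, which counts as ACGTG on both strands, and the Ece2 window held ACGTG once. A match is letters in a window and no measure of binding. Whether the Edn1 matches, all after the annotated start, correspond to the elements known in human EDN1 was not tested.

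The genes most like Edn1 across the 6 libraries were Ier3, an immediate-early gene, Hk2, which encodes hexokinase 2, and Npas4, an activity-induced transcription factor gene. Likeness was the root-mean-square difference between mean-centred log2 CPM values, over the 12119 named genes whose log2 CPM averaged 1 or more. The differences were 0.0684 for Ier3, 0.069 for Hk2 and 0.0781 for Npas4, each on the log2 scale. All 3 were higher in CKO, with log2 fold changes of 0.93, 0.73 and 0.89. The measure includes the group difference itself and is a description of 6 libraries.

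The other ligand genes, named here after their values were seen, were near the limit of detection. Edn2 had 21, 12 and 12 counts in CKO replicates 1, 2 and 3, against 19, 16 and 8 counts in control replicates 1, 2 and 3. It passed the filter and was not called (log2 fold change 0.14, SE 0.58, edgeR adjusted p = 0.943). Edn3, the ligand of the melanoblast and gut pathway, had 11, 3 and 2 counts in CKO, against 11, 2 and 4 counts in control, and did not pass the filter. Per kilobase of exon, Edn1 made up 94.5% to 97.4% of the CPM of the 3 ligand genes in CKO libraries and 92.6% to 96.6% in control libraries. Edn1 was thus the main ligand transcript in every library of both groups.

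Ednra (ENSMUSG00000031616.7, chromosome 8, 77663031 to 77724464, minus strand), the receptor with a preference for endothelin-1, was lower in each CKO library. It was at 64.6, 71.3 and 61.8 CPM in CKO replicates 1, 2 and 3, against 90.1, 93.5 and 94.3 CPM in control replicates 1, 2 and 3. The groups were 18.9 CPM apart at their nearest libraries, and 10.6% of tested genes parted by any margin with CKO below. The log2 fold change was -0.49 (SE 0.06), or 0.711 of the control level, and 4.31% of tested genes had a lower one. Without each library in turn it lay between -0.55 and -0.45. Ednra shares 91 exon bases with the opposite-strand transcript 4933431K23Rik, which had 94 to 162 counts, and no source used here says whether counting used strand. Its RefSeq promoter is printed for comparison with that of Edn1, since the pair differed between the groups in opposite directions. It lies at chr8:77724403-77724702, minus strand, and holds none of the 3 motifs, so no base is in capitals.

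Ednra promoter: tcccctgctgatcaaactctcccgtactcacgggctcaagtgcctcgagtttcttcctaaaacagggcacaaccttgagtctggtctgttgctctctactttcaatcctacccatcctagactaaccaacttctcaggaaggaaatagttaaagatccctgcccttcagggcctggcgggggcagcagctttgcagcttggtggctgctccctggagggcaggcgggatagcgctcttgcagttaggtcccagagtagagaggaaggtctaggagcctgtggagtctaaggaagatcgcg

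The genes nearest to Ednra in pattern were Zfp423 (difference 0.0427), which encodes a zinc finger transcription factor, Pdp1 (0.0521), a pyruvate dehydrogenase phosphatase gene, and Thsd1 (0.0521), a thrombospondin-domain gene. Their log2 fold changes were -0.48, -0.45 and -0.40.

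Ednrb (ENSMUSG00000022122.15, chromosome 14, 103814625 to 103844402, minus strand), the receptor of all endothelins, divided the CKO libraries. It was at 139, 196 and 139 CPM in CKO replicates 1, 2 and 3, against 201, 204 and 195 CPM in control replicates 1, 2 and 3. CKO replicates 1 and 3 stood below all controls, whereas CKO replicate 2 lay within the control range, so the groups overlapped. The CV was 20.9% over the CKO libraries and 2.29% over the controls, where counting alone gives 1.32% and 1.14%. The log2 fold change was -0.34 (SE 0.15), and it was -0.52 (SE 0.05) without CKO replicate 2. With the other CKO libraries left out it was -0.26 without replicate 1 and -0.25 without replicate 3. Ednrb was not called with all 6 libraries, but it was called without CKO replicate 2. CKO replicate 2 is also the CKO library with the highest Trim28 and the highest sum of endothelial markers, given below. The part of either in this was not tested. The nearest genes in pattern were Igf2os (difference 0.0471), an antisense transcript whose reads cannot be told from its partner's without strand, Ctso (0.0493), a cathepsin gene, and Nhsl2 (0.05).

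Ece1 (ENSMUSG00000057530.14, chromosome 4, 137862237 to 137965229, plus strand), which encodes the main converting enzyme, had a lower mean in CKO hearts. It was at 279, 315 and 274 CPM in CKO replicates 1, 2 and 3, against 317, 346 and 329.5 CPM in control replicates 1, 2 and 3. The groups did not overlap, as in 10.6% of tested genes with CKO below. CKO replicate 2 and control replicate 1 were only 2.39 CPM apart. The log2 fold change was -0.19 (SE 0.06), or 0.874 of the control level, and it was -0.26 (SE 0.05) without CKO replicate 2. Ece1 was not called with all 6 libraries and was called without CKO replicate 2. Its nearest genes in pattern were the endothelial receptor kinase gene Tie1 (difference 0.0116), Pam (0.0169), which encodes a peptide-amidating enzyme, and Acaa2 (0.02), of fatty acid oxidation. The log2 fold changes of these 3 genes were -0.20, -0.17 and -0.22.

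Ece2 (ENSMUSG00000022842.18, chromosome 16, 20629828 to 20646485, plus strand), which encodes the related enzyme, had 13, 8 and 1 counts in CKO replicates 1, 2 and 3, against 9, 0 and 4 counts in control replicates 1, 2 and 3. The 0 in control replicate 2 allows up to 0.0778 CPM, taking 3 counts as the limit, which covers counting error only. The values overlapped, the gene did not pass the filter, and no fold change is given. Of its exon bases, 57.5% are shared with the same-strand gene Gm49333, and no source used here says how shared reads were counted.

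Set per kilobase of exon, the order of the members was the same in all 6 libraries: Ece1, Ednrb, Ednra, Edn1 and Ece2 from high to low. Ece1 was at 54.6 ± 4.19 CPM per kb in CKO hearts and 62.4 ± 2.78 CPM per kb in control hearts (SD, n = 3 each). Ednrb was at 37.1 ± 7.74 CPM per kb in CKO hearts and 46.8 ± 1.07 CPM per kb in control hearts. Ednra followed at 12.0 ± 0.889 CPM per kb in CKO hearts and 16.9 ± 0.404 CPM per kb in control hearts. Edn1 was at 8.66 ± 0.701 CPM per kb in CKO hearts and 4.89 ± 0.0688 CPM per kb in control hearts. Neighbours in this order stood further apart than the SD of either in both groups, the nearest pair being Ednra and Edn1 in CKO hearts.

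Since Edn1 was higher and Ednra lower in CKO hearts, the ratio of these transcripts had to differ more than either alone. Edn1 over Ednra, per kb, was 0.691, 0.727 and 0.743 in CKO replicates 1, 2 and 3, against 0.298, 0.29 and 0.28 in control replicates 1, 2 and 3. CKO libraries stood well above control libraries, at 2.49 times the control mean. Against the sum of both receptors, Edn1 was at 0.178 ± 0.0160 in CKO hearts and 0.0767 ± 0.000555 in control hearts (SD, n = 3 each). The ratio of Ednrb to Ednra was 2.76, 3.53 and 2.89 in CKO, against 2.86, 2.8 and 2.65 in control, so the groups overlapped. These ratios come from the same contrast as the members and carry no test.

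Endothelial and endocardial cells are a main source of Edn1, Ednrb and Ece1. The summed level of 13 endothelial markers, none at 0, ranged from 1344 to 1587.5 CPM in CKO libraries and from 1643.5 to 1702 CPM in control libraries. In whole hearts, fewer cells of a type and less RNA per cell cannot be told apart. Of the 13 markers, 4 fell and none rose, where 1.07% of all tested genes were called lower. With the ribosomal RNA covariate none of the 13 was called. Their log2 fold changes were negative in 12 and positive in 1, with a median of -0.18 against 0.0036 for all tested genes. The 4 that fell were Tek, the angiopoietin receptor gene (-0.36, adjusted p = 0.00195), Plvap of fenestrated endothelium (-0.35, adjusted p = 0.00978), the cadherin gene Cdh5 (-0.30, adjusted p = 0.00838) and the VEGF receptor gene Kdr (-0.26, adjusted p = 0.046), all by edgeR. When each library was omitted in turn, Tek passed in all 6 fits, Plvap and Cdh5 in 3 and Kdr in 1 (adjusted p up to 0.217). Tie1 (-0.20, adjusted p = 0.0647) and Pecam1 (-0.09, adjusted p = 0.419) were not called by edgeR, whereas DESeq2 called Tie1 lower (adjusted p = 0.0294).

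Set against this sum, the members parted. Edn1 amounted to 1.26%, 1.27% and 1.33% of the summed endothelial CPM in CKO replicates 1, 2 and 3, against 0.639%, 0.622% and 0.613% in control replicates 1, 2 and 3. It was thus 2.07 times as high in CKO hearts. Ece1 amounted to 20.2%, 19.8% and 20.4% in CKO, against 19.3%, 20.4% and 19.6% in control, and the groups overlapped. Ednrb amounted to 10.1%, 12.4% and 10.4% in CKO, against 12.2%, 12.0% and 11.6% in control, with overlap through CKO replicate 2. Ednra amounted to 4.68%, 4.49% and 4.60% in CKO, against 5.48%, 5.49% and 5.61% in control, without overlap. The share of the endothelial markers in each difference was not tested.

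**Figure D2:**
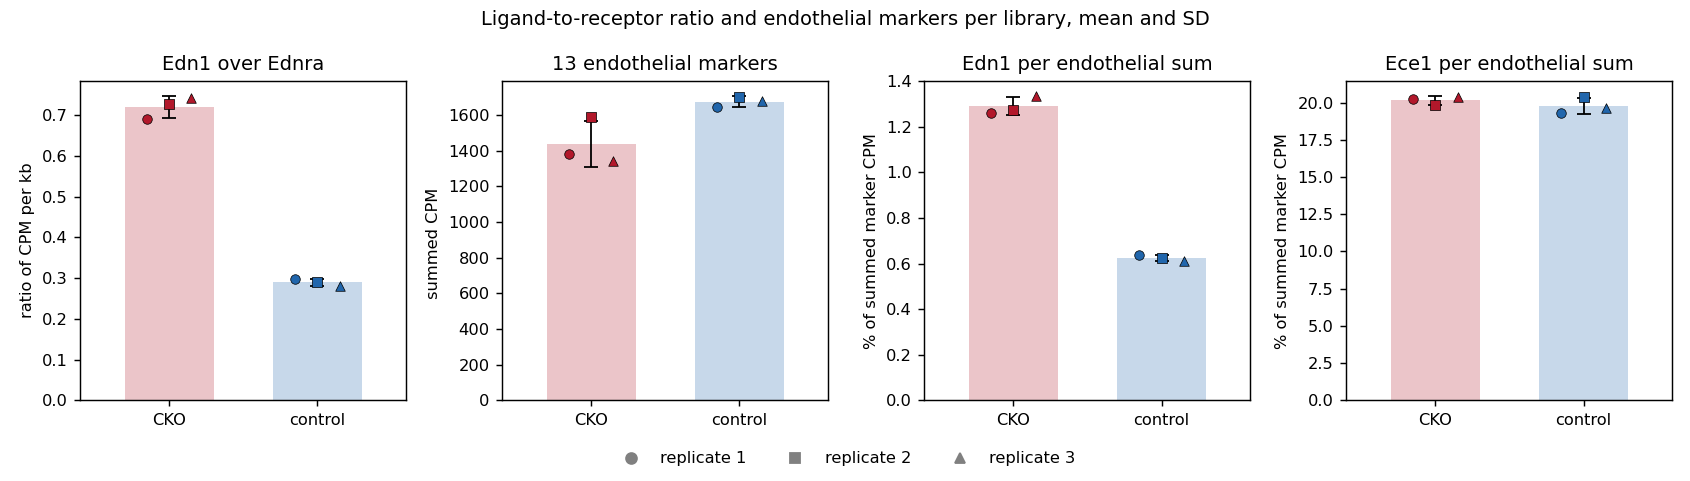
From left to right, the ratio of Edn1 to Ednra (CPM per kb), the summed CPM of 13 endothelial markers, and Edn1 and Ece1 as a percentage of that sum, per library with group means from 0 and SD, CKO left and control right. Edn1 stood at 1.26% or more of the sum in CKO and 0.639% or less in control, while Ece1 lay between 19.3% and 20.4% in all 6 libraries.

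Ednra is known from smooth muscle, mural and mesenchymal cells. Of 9 genes used as smooth muscle and mural markers, 4 rose and none fell, where 3.03% of all tested genes were called higher. Their log2 fold changes were positive in 7 and negative in 2, with a median of 0.32. Their summed level was 2613 to 3082 CPM in CKO libraries and 1963 to 1977 CPM in control libraries, and most of it was Acta2, which averaged 1890 CPM in CKO hearts and 1207 CPM in control hearts. Myh11, the smooth muscle myosin gene, rose by 1.61 (SE 0.24, adjusted p = 0.00312), the smooth muscle actin gene Acta2 by 0.65 (adjusted p = 0.000638), Cnn1 by 0.47 (adjusted p = 0.00546) and the pericyte proteoglycan gene Cspg4 by 0.32 (adjusted p = 0.00378) on the log2 scale in edgeR. With each library omitted in turn, Myh11, Acta2 and Cnn1 passed in all 6 fits and Cspg4 in 5 (adjusted p up to 0.0503). Abcc9 (-0.05, adjusted p = 0.752) and the mural receptor gene Pdgfrb (-0.07, adjusted p = 0.569) were not called. Myh11 averaged only 13.6 CPM in CKO hearts and 4.40 CPM in control hearts. In whole hearts the cells that held these transcripts are not known, and their part in the lower level of Ednra was not tested.

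Of 9 mesenchymal genes, 6 had a negative and 3 a positive log2 fold change, with a median of -0.15, and Postn alone fell (-0.29, edgeR adjusted p = 0.0156, kept in 3 of 6 fits with a library omitted, adjusted p up to 0.1). Their sum was 4302 to 5335 CPM in CKO libraries and 4105.5 to 4943 CPM in control libraries. Col3a1 (-0.05, adjusted p = 0.876) and Col1a1 (0.28, adjusted p = 0.408) were not called. Of 12 genes of neural crest, glia and melanoblasts, 10 were tested and Erbb3, a neuregulin receptor gene, fell (-0.35, adjusted p = 0.046, kept in 2 of those fits, adjusted p up to 0.207). Their sum was 106 to 114 CPM in CKO libraries and 113 to 118 CPM in control libraries. Mitf (-0.07, adjusted p = 0.671) and Ngfr (0.32, adjusted p = 0.241) were not called. Of 8 epicardial markers none was called by edgeR, DESeq2 or limma-voom, and 2 were lower at an unadjusted p under 0.05. Their log2 fold changes were positive in 5 and negative in 3, with a median of 0.06. The most abundant, Upk3b (-0.12, adjusted p = 0.277) and Tbx18 (-0.11, adjusted p = 0.358), were not called, and the sum of the list was 376 to 426 CPM in CKO libraries and 398 to 425 CPM in control libraries.

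For the wider endothelin pathway, calls are set beside the 4.1% of all tested genes that were called. At that share, lists this short would hold few calls or none, so nothing is read from their absence. Of 9 further genes of ligands, precursor processing and peptide breakdown, 8 were tested and none was called by edgeR, DESeq2 or limma-voom, with 2 higher at an unadjusted p under 0.05 in edgeR. Their median log2 fold change was 0.13. Furin, which cuts the precursor, was at 247 CPM in CKO hearts and 225 CPM in control hearts (0.13, edgeR adjusted p = 0.211). The peptidase gene Ctsa was at 176 CPM in CKO hearts and 161 CPM in control hearts (0.12, adjusted p = 0.215). Of 22 genes that couple the receptors to G proteins, phospholipase C and desensitisation, none was called by any of the 3 tools, and 4 were lower at an unadjusted p under 0.05. Their median was -0.08. Gnai2 (-0.01, adjusted p = 0.963) and the calcium channel gene Itpr1 (-0.04, adjusted p = 0.826) were the most abundant.

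Genes known to act above or below endothelin-1 were set beside all tested genes, of which 3.03% were called higher and 1.07% lower. With lists this short, nothing is read from the counts of calls. Of 13 genes of factors that regulate Edn1, Gata2, an endothelial and blood factor, fell (-0.34, SE 0.09, edgeR adjusted p = 0.0434, kept in 1 of 6 fits with a library omitted, adjusted p up to 0.174) and none rose, with a median of -0.04. Gata4 was at 0.12 (adjusted p = 0.227) and Hif1a at 0.07 (adjusted p = 0.528). Fos, which encodes an AP-1 subunit and also stands in the list of myocyte response genes, is named after its values were seen. It was at 7.09, 16.3 and 9.92 CPM in CKO replicates 1, 2 and 3, against 2.98, 5.37 and 4.06 CPM in control replicates 1, 2 and 3, without overlap. Of tested genes, 11.5% parted in this way with CKO above. The log2 fold change of Fos was 1.42 (SE 0.38, edgeR adjusted p = 0.114), and Fos was called by DESeq2 (adjusted p = 0.0203) and limma-voom (adjusted p = 0.0207). Jun, which encodes its partner, was at -0.04 (adjusted p = 0.81). Of 8 genes that EDNRA signalling turns on in neural crest of the arches in mouse, 3 were tested. Hand2 fell (-0.23, SE 0.06, adjusted p = 0.0263, kept in 2 of those fits, adjusted p up to 0.122), and Hand1 (-0.23, adjusted p = 0.687) and Dlx5 (-0.26, adjusted p = 0.848) were not called. Hand2 is also a gene of heart muscle and mesenchyme.

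The next list held 9 genes that endothelin-1 is known to induce in cultured heart muscle cells, or that accompany that growth response. Of these, 4 rose and none fell, where 3.03% of all tested genes were called higher, and the median log2 fold change was 0.62. The cardiac ankyrin repeat gene Ankrd1 averaged 1192 CPM in CKO hearts and 775 CPM in control hearts (0.62, SE 0.05, edgeR adjusted p = 1.13e-06). The others were Nppb (1.36, adjusted p = 0.000146) and Nppa (0.38, adjusted p = 0.0379), natriuretic peptide genes, and Egr1 (1.18, adjusted p = 2.97e-07), an immediate-early gene. With each library omitted in turn, Nppa passed in 2 of 6 fits (adjusted p up to 0.272), and Ankrd1, Nppb and Egr1 passed in all 6. DESeq2 and limma-voom each called 6 of the 9 higher. Acta1 (0.84, adjusted p = 0.177) and Myl2 (-0.05, adjusted p = 0.809) were not called by edgeR. Acta1 was called higher by DESeq2 (adjusted p = 0.00726) and limma-voom (adjusted p = 0.00408). Part of this list was known to be higher in these hearts when it was written, so its count is no independent evidence.

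**Figure D3:**
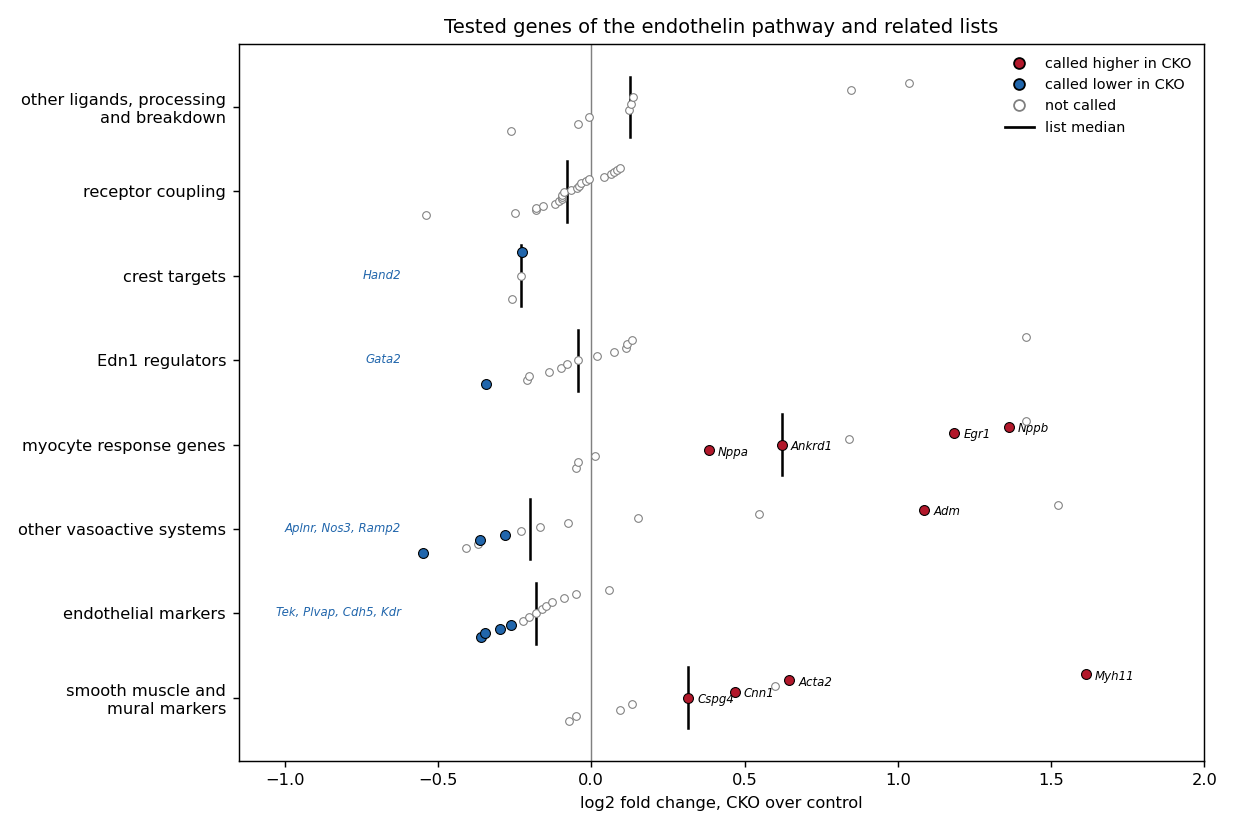
Log2 fold changes (CKO over control) of the tested genes of 6 pathway and related lists and 2 cell type marker lists. Filled points passed the edgeR test at an adjusted p under 0.05 and are named (lower genes at the left, in order), open points did not, and the vertical bars are list medians, from -0.23 for crest targets to 0.62 for myocyte response genes.

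Other vasoactive systems held changes in both directions. Of 12 genes, 1 rose and 3 fell, where 3.03% of all tested genes were called higher and 1.07% lower. The median log2 fold change was -0.20. Adm, which encodes the dilating peptide adrenomedullin, was at 12.4, 18.9 and 16.9 CPM in CKO replicates 1, 2 and 3, against 7.5, 6.54 and 8.67 CPM in control replicates 1, 2 and 3. All CKO values were above all control values, as in 11.5% of tested genes. Adm rose by 1.09 on the log2 scale (SE 0.15, edgeR adjusted p = 0.000551), and it passed in all 6 fits with a library omitted. Ramp2, which encodes the partner of its receptor, fell by 0.28 (adjusted p = 0.0136), the nitric oxide synthase gene Nos3 by 0.36 (adjusted p = 0.0107) and the apelin receptor gene Aplnr by 0.55 (adjusted p = 0.00826) on the log2 scale. Ramp2 passed in 4 of those fits, and Nos3 and Aplnr in 3 each (adjusted p up to 0.111). The receptor gene Calcrl (-0.17, adjusted p = 0.196) and the angiotensin receptor gene Agtr1a (-0.23, adjusted p = 0.399) were not called. Of the 8 cardiomyocyte markers, Myh6 rose (0.33, adjusted p = 0.0102, kept in 2 of those fits, adjusted p up to 0.122), while Myh7 (-0.23, adjusted p = 0.138) and Ttn (0.18, adjusted p = 0.431) were not called by edgeR. DESeq2 also called Myh7 lower (adjusted p = 0.023) and Actn2 higher (adjusted p = 0.0127).

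**Figure D4:**
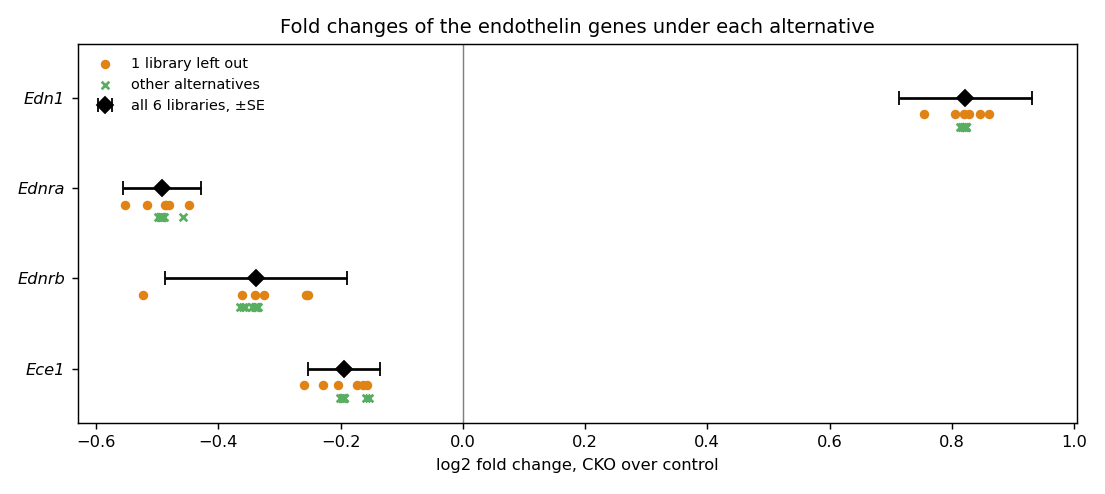
Log2 fold changes, CKO over control, of the 4 tested endothelin genes with all 6 libraries (diamonds, bars are SE), without each library in turn (orange) and under the other alternatives (green crosses). Edn1 stayed between 0.76 and 0.86 and Ednra between -0.55 and -0.45, while Ednrb ranged from -0.52 to -0.25 and Ece1 from -0.26 to -0.15.

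With the log2 share of the ribosomal RNA row as a covariate, the log2 fold change was 0.81 (SE 0.18) for Edn1 and -0.46 (SE 0.10) for Ednra. Neither was called in that fit, in which 53 genes were called higher and 3 lower among all genes. With Y-linked expression as a covariate, Edn1 (0.82, SE 0.14) and Ednra (-0.49, SE 0.08) were both called. This covariate was on a log2 scale, where control replicate 2, with 0 Ddx3y counts, stood far from the other libraries. It thus mainly set that library apart and cannot stand for an adjustment for sex. The members' calls in either fit are a description. Of the called genes of the pathway and marker lists, Ankrd1, Nppb, Egr1, Adm, Acta2 and Myh6 were still called with the ribosomal RNA covariate, and the rest were not (edgeR adjusted p up to 0.869). With the Y-linked covariate, Ankrd1, Nppb, Nppa, Egr1, Adm, Acta2, Cnn1, Myh11, Cspg4, Tek and Postn were still called.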

How the data were processed

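Raw counts per gene symbol, as deposited, covered 6 libraries of poly(A) RNA, per the labels, on mm10, per the submitters' processing notes. No source used here gives the aligner, the counting program or the annotation. Symbols altered by a statistics program were restored for 2017 rows from GENCODE M21, which also gave positions and exon lengths on mm10.

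Genes were filtered with filterByExpr (minimum count 10, total 15), scaled with TMM factors and tested with edgeR 4.0.16 in R 4.3.3 (glmQLFit, robust, and glmQLFTest, two-sided), with group as the only term and Benjamini-Hochberg adjustment over 17557 genes. Calls were made at an adjusted p below 0.05. The SE is the log2 fold change over the root of the F statistic. CPM used TMM-scaled library sizes, and log2 CPM a prior count of 2. DESeq2 1.42.0 and limma-voom (limma 3.58.1) were alternatives. The pipeline was also run on simulated data, and no reading of called or uncalled genes here rests on that run.

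The members and gene lists were chosen with earlier results of these data known. Named list genes are all those called plus the 2 most abundant others, and exceptions are stated. Counts of calls in a list are to be read beside the shares of all tested genes, 3.03% called higher and 1.07% lower.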

Additional observations from a re-analysis of the deposited data

How the results depend on the processing

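The log2 fold changes of Edn1, Ednra, Ednrb and Ece1 kept their sign and moved by less than the SD within groups under all 16 alternatives. Edn1 and Ednra were called under 15 of the 16, the exception being the ribosomal RNA covariate, and Ednrb and Ece1 under 3 each (both with no filter and without CKO replicate 2, Ednrb with the block and Ece1 with DESeq2). The refits used the same libraries, and the members were chosen with this contrast known, so the tally is a description only. With the replicate number as a replicate block, 518 genes were called higher and 158 lower, against 532 and 188 without it, and Ednrb was called at -0.36 (SE 0.09). The correlations of same-numbered libraries' deviations from their group means were -0.00223, 0.0167 and 0.00136. Values this small show no strong shared pattern over all genes, but they cannot exclude that same-numbered libraries were paired. Leaving out 1 library at a time gave 255 to 1012 higher and 39 to 540 lower calls, most of both without CKO replicate 2; higher calls fell by more than 1.5 times without any 1 control or CKO replicate 3, and lower calls without any 1 library other than CKO replicate 2. The cause was not tested. Calls numbered 863 higher and 388 lower with no filter on low counts, 304 lower with DESeq2, 53 higher and 3 lower with the ribosomal RNA covariate, and 274 higher and 36 lower with a covariate for Y-linked expression. Of 65 tested genes of the 6 pathway and related lists, 5 were called higher and 5 lower, against 3.03% and 1.07% of all tested genes. The lists were chosen with earlier results known, so nothing is read from this count. Lower calls in these lists ranged from 0 (without control replicate 2 or CKO replicate 3) to 11 (without CKO replicate 2) and were 0 with either covariate. The edgeR legacy fit, chosen after seeing the data, changed none of the members' calls. At the depth of these libraries Ece2 and Edn3 gave too few counts to test, and the log2 fold change of Edn2 had an SE of 0.58.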
